A study of Caenorhabditis elegans with 3 samples.

Results

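The histone genes of Caenorhabditis elegans were compared for binding of MEP-1, with the clustered gene copies set against the isolated variant genes. All nuclear protein-coding genes whose symbol is his- followed by a digit were taken, with the H2A.Z gene htz-1 and the H1 genes hil-1, hil-2, hil-3, hil-4, hil-5 and hil-7. This gave 79 genes of 19973. Of these, 54 were replication-dependent genes in clusters, defined as runs of at least 4 histone genes whose neighbouring starts lie at most 5000 bp apart, and there were 9 such runs. A further 11 were replication-dependent genes outside the clusters. The label replication-dependent was given by name alone, to every his- gene that is not among the variants. The remaining 14 were variant genes: 7 H1 genes, htz-1, and the 6 H3.3 or H3.3-like genes his-69 to his-74.

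The series holds 3 ChIP-seq samples of tagged MEP-1, all from 1 group. The labels describe the ChIP as against eGFP-tagged MEP-1 in one field and name the antibody mep-1 in another, so whether the tagged protein alone or all MEP-1 was precipitated is not settled here. Whole L4 larvae of strain OP102 were used, with males and females pooled; the strain carries unc-119(tm4063) III and the transgene wgIs102, and so do all 3 samples. The samples are numbered in the labels as biological replicates 1, 2 and 3. Replicates 1 and 2 came from CGC stock with fragments of 150 to 350 bp, whereas replicate 3 came from a laboratory stock, was sonicated and is noted to express MEP-1 with a GFP-FLAG tag at its C terminus. The promoter that drives the transgene and the number of animals are not stated, the control was not analysed here, and a list from whole animals does not tell in which cells a promoter was bound.

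Histones package DNA into nucleosomes. The core histones H2A, H2B, H3 and H4 are needed in bulk when DNA is replicated, and their genes exist in many near-identical copies, often as divergent pairs that share the spacer between them; their mRNAs end in a conserved hairpin rather than a poly(A) tail. Variant histones such as H3.3 and H2A.Z are deposited outside replication, and H1 binds the linker DNA between nucleosomes. MEP-1 is a zinc-finger protein that acts with the chromatin remodeller LET-418 to keep germline genes silent in somatic cells, and the germ line of an L4 larva is proliferating.

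Bound and unbound histone promoters are shown here by sequence, because many of the unbound spacers exist in several identical copies. The first set below is the sequence 50 bases to either side of the point source, the base at which the authors placed the summit of a region, at 5 bound histone promoters that share a 9-letter word. The next 3 lines are spacers with no point source in the list of reproducible regions. The his-50/his-49 spacer has the same letters as the his-28/his-27 spacer, the his-16/his-15 spacer has 2 further identical copies, and the his-60/his-59 spacer exists once. The last pair of lines is the same window at 2 bound variant genes that lack the word. All are on the forward strand of the RefSeq genome, build WBcel235 (ce11), 5′ to 3′, and the capitals mark GTCCCNGCA on either strand.
his-37 (H4), bound (chrV:9546966-9547066): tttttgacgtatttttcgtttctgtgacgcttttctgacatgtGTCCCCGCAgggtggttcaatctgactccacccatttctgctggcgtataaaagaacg
his-24 (H1), bound (chrX:14490014-14490114): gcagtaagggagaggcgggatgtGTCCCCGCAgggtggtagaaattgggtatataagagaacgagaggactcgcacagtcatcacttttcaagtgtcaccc
his-61/his-62 (H2A/H2B), bound (chrIV:7486359-7486459): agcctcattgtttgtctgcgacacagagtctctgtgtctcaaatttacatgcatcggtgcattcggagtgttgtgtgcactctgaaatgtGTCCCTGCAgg
his-31/his-32 (H4/H3), bound (chrIV:8334105-8334205): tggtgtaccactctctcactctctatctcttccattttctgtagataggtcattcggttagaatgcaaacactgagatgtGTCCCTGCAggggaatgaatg
his-4/his-3 (H2B/H2A), bound (chrV:16040604-16040704): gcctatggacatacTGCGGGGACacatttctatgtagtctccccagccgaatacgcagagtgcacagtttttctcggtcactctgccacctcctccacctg
his-50/his-49 spacer, repeated (chrV:8847705-8847942): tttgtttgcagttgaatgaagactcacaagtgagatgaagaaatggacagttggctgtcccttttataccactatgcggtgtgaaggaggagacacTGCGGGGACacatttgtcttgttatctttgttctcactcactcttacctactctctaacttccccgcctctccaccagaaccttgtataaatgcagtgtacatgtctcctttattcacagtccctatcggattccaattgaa
his-16/his-15 spacer, repeated (chrII:13818144-13818370): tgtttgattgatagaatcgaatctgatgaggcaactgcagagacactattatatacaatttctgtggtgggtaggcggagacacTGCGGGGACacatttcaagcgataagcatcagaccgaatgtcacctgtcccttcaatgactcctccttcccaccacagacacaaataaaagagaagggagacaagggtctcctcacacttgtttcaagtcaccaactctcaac
his-60/his-59 spacer, single copy (chrIV:7487993-7488248): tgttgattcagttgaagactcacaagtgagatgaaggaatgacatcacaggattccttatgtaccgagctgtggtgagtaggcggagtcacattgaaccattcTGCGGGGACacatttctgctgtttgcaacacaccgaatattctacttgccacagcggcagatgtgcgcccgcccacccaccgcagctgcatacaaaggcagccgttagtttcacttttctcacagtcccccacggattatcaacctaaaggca
his-72 (H3.3), bound (chrIII:12369087-12369187): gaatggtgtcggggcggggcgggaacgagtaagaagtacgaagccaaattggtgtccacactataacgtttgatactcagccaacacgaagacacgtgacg
htz-1 (H2A.Z), bound (chrIV:4445866-4445966): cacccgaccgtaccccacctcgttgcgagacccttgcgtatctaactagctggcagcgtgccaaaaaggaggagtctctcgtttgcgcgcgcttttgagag

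The word was chosen after these sequences had been read, so its counts are a description. It occurred in the promoter window of 37 of the 79 histone genes (46.8%) and of 91 of all 19973 protein-coding genes (0.456%). The window runs from 500 bp before to 100 bp after any annotated start of transcription. By class, it occurred in 30 of 54 clustered genes, 5 of 11 replication-dependent genes outside the clusters, and 2 of 14 variants, which were his-24 and hil-2. Of the 12 point sources at histone promoters, 6 had the word within 100 bp, with the nearest copy 3 to 44 bp away. Among divergent pairs it was in 4 of 5 bound spacers and in 13 of 26 unbound spacers. Among the protein-coding genes that are not histone genes, 54 had the word and 5 of them were bound (9.26%), beside 12.7% of those without it.

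The authors' IDR list is their list of reproducible regions, and how it combined the 3 replicates is not given in the sources used here. Genes were called bound where this list placed a point source inside the promoter window. By this rule 17 of the 79 histone genes were bound (21.5%), where 12.7% of all protein-coding genes were. In the 5167 highest-scoring regions of each replicate, a number equal to the distinct intervals of the IDR list, 16, 16 and 19 histone genes were bound in replicates 1, 2 and 3. These are 20.3%, 20.3% and 24.1% (21.5% ± 2.19, SD, n = 3), and the shares of all protein-coding genes were 12.9%, 12.4% and 12.8%. In each replicate the histone share thus lay above that of all genes, and no test of the list was made. Because divergent genes share a spacer, the 17 genes rest on 12 distinct point sources. The median score of the bound histone genes, the authors' signal value with no stated scale, was 201.7, with a range of 63.4 to 874, and that of all 2533 bound protein-coding genes was 126.9.

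The bound share was smaller among the clustered copies than among the variants in the IDR list and in each of the 3 replicates. In the IDR list 6 of 54 clustered genes (11.1%), 5 of 11 replication-dependent genes outside the clusters (45.5%) and 6 of 14 variants (42.9%) were bound. Among the top regions, the clustered share was 14.8%, 11.1% and 14.8% in replicates 1, 2 and 3, and the variant share was 35.7%, 42.9% and 50%. The 3 replicate values of the clusters all lay below those of the variants. The clustered share minus the variant share was -20.9, -31.8 and -35.2 percentage points (mean -29.3 ± 7.46, SD, n = 3), with p = 0.25 in an exact two-sided sign-flip permutation test, the smallest p that 3 replicates allow. The sign depended on which genes were counted. Of genes with at least 80% unique sequence in the window, measured as the share of words that occur once, 2 of 3 clustered genes and 6 of 14 variants were bound, a difference of 23.8 percentage points. Both bound clustered genes, his-61 and his-62, share 1 point source, so this value rests on 1 region. With at least 50% unique sequence, 6 of 13 clustered genes and 6 of 14 variants were bound, a difference of 3.297 points whose sign 1 gene would turn.

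**Figure D1:**
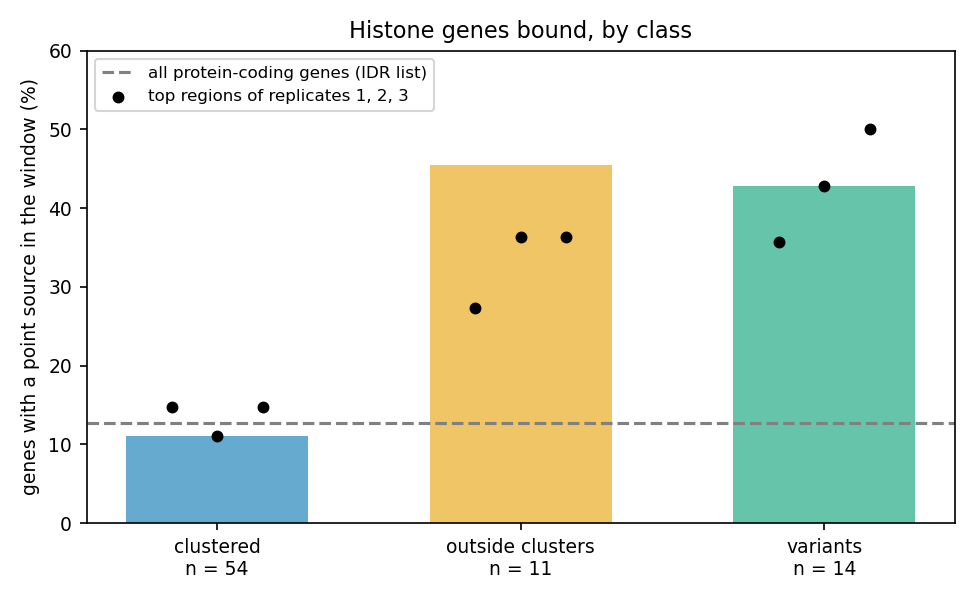
Bars give the percentage of histone genes bound in the IDR list for clustered replication-dependent genes (n = 54), those outside the clusters (n = 11) and variants (n = 14), and the dots give the same percentage in the top regions of replicates 1, 2 and 3. The clustered genes lie near the dashed line of all protein-coding genes (12.7%), and the variants lie above it in all 3 replicates.

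Most clustered genes have repeated promoters, whereas the variants do not. Uniqueness was measured as the share of 30-base words of the window that occur once in the nuclear genome on either strand, and 91.1% of all genomic words do. For genes with several annotated starts, the window measured was that of the outermost start alone. The median over the windows was 0% in the clustered genes, whose highest value was 87.2%, 79.6% in the replication-dependent genes outside the clusters and 100% in the variants, whose lowest value was 82.2%. All 17 bound histone genes had windows that were 51.1% to 100% unique, with a median of 96.3%, and all 12 point sources had fully unique sequence over the 200 bp around them.

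Of the 40 histone genes with under 20% unique words, 0 were bound and 0 had a point source in any replicate's relaxed list, a list of 30000 regions that reaches into background. The 4 histone genes with 20% to 50% unique words also had none. Few protein-coding genes with such promoters were called at all, the histone genes included. Of all 335 genes with under 20% unique words, 0 were bound and 0.896% had a point source in any relaxed list. Of all 338 genes with 20% to 50%, 2.96% were bound and 10.65% had one. Over all 673 genes with under 50% unique words, the shares were 1.49% and 5.79%. The method used to place reads that match several copies is not given in the sources used here. Its part in the difference between clusters and variants was not tested.

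Where the window was mostly unique, the share of histone genes bound lay above that of all genes, with no test of the list. Of 13 histone genes with 50% to 80% unique words, 4 were bound and 10 had a point source in some relaxed list (76.9%), where 7.67% and 23.7% of all 874 such genes did. All 10 belong to divergent pairs that share a spacer. The 4 bound ones, his-31/his-32 and his-4/his-3, have 1 point source per pair. Of 22 histone genes with at least 80% unique words, 13 were bound (59.1%), where 13.3% of all such genes were. Within the 13, the pairs his-61/his-62, his-67/his-68 and his-35/his-41 each share 1 point source. Among these 22, the replication-dependent genes accounted for 8, of which 7 were bound, and the exception was his-42, a clustered H3 gene on chromosome II whose window was 87.2% unique. An IDR region (chrII:13829095-13829498, score 129) overlapped the window of his-42, with its point source 600 bp upstream, outside the limit of 500 bp. Overlapping regions ranked 1422, 2856 and 3181 in replicates 1, 2 and 3, so the call at his-42 was decided by the window's edge. Of the 8 replication-dependent genes, 5 have the hairpin described below, and 4 of those 5 were bound. The variants accounted for the other 14 of the 22, of which 6 were bound. The windows of the bound variants were 99.8% to 100% unique and those of the 8 unbound ones 82.2% to 100%, with 3 of the 8 at 100%.

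**Figure D2:**
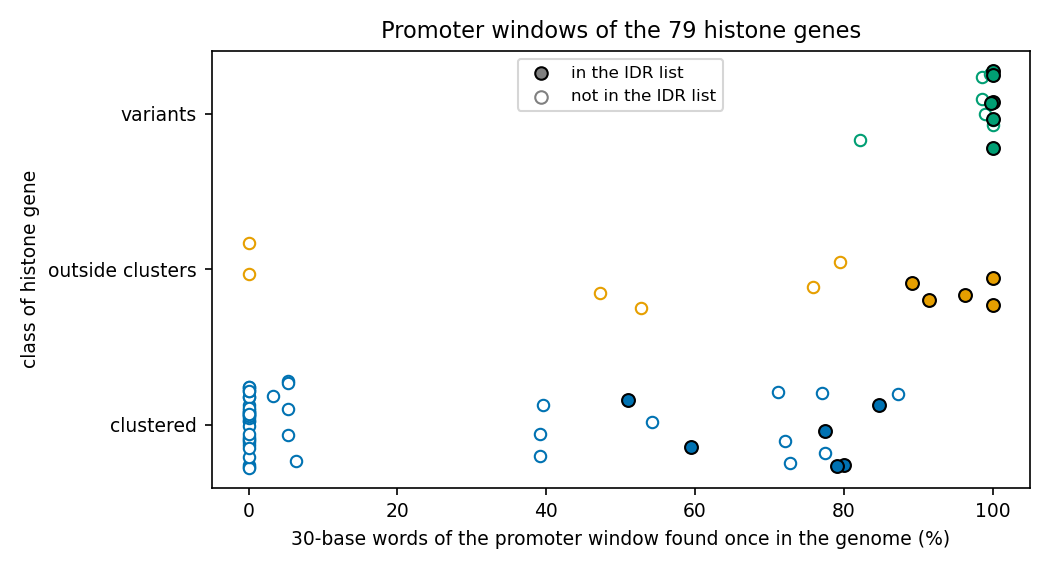
Each circle is 1 of the 79 histone genes, placed by the percentage of 30-base words of its promoter window that occur once in the genome, with filled circles for genes in the IDR list and vertical scatter added for legibility. Clustered genes pile up at 0%, and no filled circle lies below 51.1%.

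**Figure D3:**
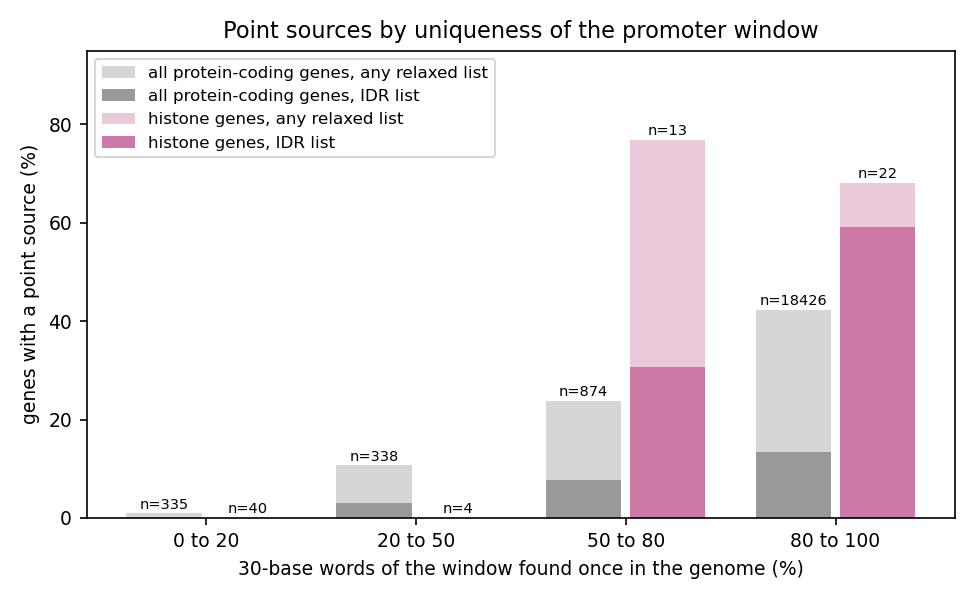
Bars give the percentage of genes with a point source in the IDR list (dark) and in any replicate's relaxed list (light), in 4 ranges of promoter uniqueness, for all protein-coding genes and for the 79 histone genes. Below 50% the histone genes have no point source, and from 80% upwards 59.1% of them are in the IDR list, compared with 13.3% of all genes.

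Among the replication-dependent genes outside the clusters, his-37 had the highest-ranked region of any histone gene. It encodes an H4 protein identical to that of the clustered copies. Its region (chrV:9546821-9547258) ranked 43, 29 and 31 in replicates 1, 2 and 3, with the point source 89 bp upstream of the start and an IDR score of 874. The neighbouring divergent pair his-35 (H2A) and his-41 (H2B) had the lowest score of the bound genes, 63.4, so the highest and the lowest values came from the same run of 3 genes. The region of his-35 ranked 5506, 5145 and 4591, which put it among the top regions of replicates 2 and 3 and not of replicate 1. The window of his-41 held a point source in replicate 1 alone, at rank 5506, which is below the top regions. The 3 genes have no match to the hairpin described below, so their place among the replication-dependent genes rests on their names alone. They are 3 of the 5 bound replication-dependent genes outside the clusters.

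The H4 gene his-67 and the H2A gene his-68 form a divergent pair, the only H2A/H4 pair of the 31. Their region (chrI:9988836-9989141) ranked 176, 314 and 186, with an IDR score of 386.5, and its point source lay 230 bp from the start of his-67 and 139 bp from that of his-68. The other 6 replication-dependent genes outside the clusters were not bound. Of these, his-66 and his-65 have windows with no unique words and share their spacer with his-47 and his-48, and his-63 and his-64 have windows 47.2% and 52.8% unique. The pair his-38 and his-40 had a point source at ranks 16834 and 16401 in the relaxed lists of replicates 1 and 3 and none in replicate 2.

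Within the 9 clusters, 3 divergent pairs were bound, each in a different cluster. The H4/H3 pair his-31/his-32 (chrIV:8334014-8334296) ranked 384, 553 and 546 in replicates 1, 2 and 3, with an IDR score of 285.7. The H2A/H2B pair his-61/his-62 (chrIV:7486273-7486545) ranked 658, 548 and 398, with a score of 265.1. The H2B/H2A pair his-4/his-3 (chrV:16040552-16040758) ranked 1089, 1966 and 1489, with a score of 165.7. These pairs were among the top regions of all 3 replicates, and their point sources lay 11, 28 and 7.5 bp from the middle of the spacer.

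The H3/H4 pair his-59/his-60, in the same cluster as his-61/his-62, was called in part of the replicates. It ranked 705 in replicate 1 and 495 in replicate 3, both among the top regions, and had no point source in replicate 2 even in the relaxed list. It was also absent from the relaxed list of the pooled replicates and from the IDR list. Its spacer, printed above, is 100% unique. The pair his-1/his-2, beside his-3/his-4, had point sources at ranks 20576 and 17609 in replicates 1 and 2 and none in replicate 3.

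The other 6 clusters had no bound gene and no point source of any relaxed list in a promoter window, although regions overlapped the window of his-42, in the chromosome II cluster, in all 3 replicates. The largest, 13 genes on chromosome II (chrII:13817760-13828697), had a median of 0% unique words, and so did the clusters of 8 genes (chrV:8889488-8898539) and 6 genes (chrV:8847393-8854053) on chromosome V. The pair of 4-gene clusters on chromosome IV (chrIV:11324056-11326998 and chrIV:11337853-11341703) had at most 5.25% unique words. The 5-gene cluster on chromosome V (chrV:8532715-8536716), which holds the shortened H2B gene his-39, was 39.2% to 72.03% unique and also had none. Over all 79 genes, 15 had a point source in the relaxed lists of all 3 replicates (19.0%), beside 20.7% of all protein-coding genes. In any relaxed list 25 histone genes had one (31.6%), beside 40.3% of all genes, and of the 54 with none, 44 were clustered.

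**Figure D4:**
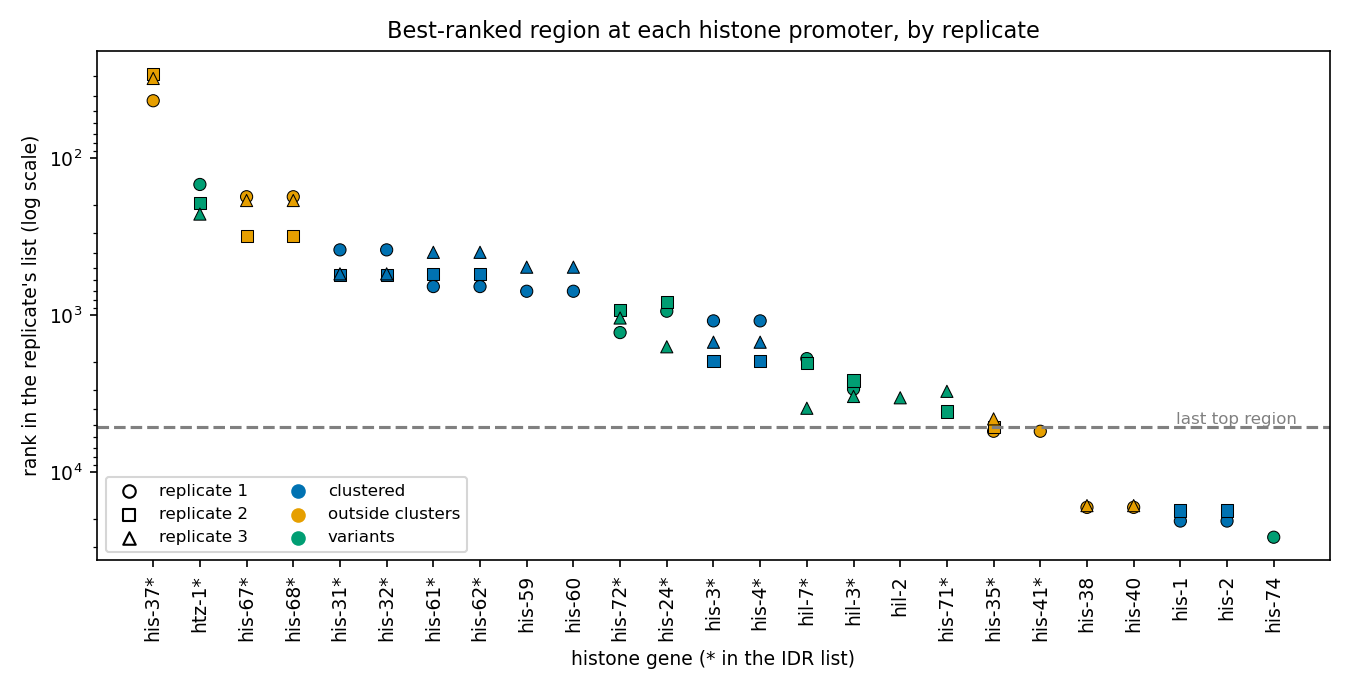
Points give the rank of the best region whose point source lies in the promoter window, in each replicate's relaxed list (log scale, best at the top), for the 25 histone genes with a point source in any list; shapes mark replicates, colours mark classes and asterisks mark genes in the IDR list. The H4 gene his-37 leads in all 3 replicates, at ranks 43, 29 and 31, while his-59 and his-60 have ranks of 705 and 495 in replicates 1 and 3 and no point in replicate 2.

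The 31 divergent pairs have spacers of 227 to 368 bp between their annotated gene starts, and 5 were bound. Counted by gene rather than by pair, 12.7% of all protein-coding genes were bound. At the bound pair his-35/his-41 these starts are not the first coding bases. Bound spacers were 97.7% to 100% unique, and the most similar other histone spacer matched them at 59.8% to 88.7% of positions (median 66.0%). The 26 unbound spacers had a median of 0% unique words and matched another spacer at 86.8% to 100% (median 100%), and 16 of them had an identical copy elsewhere. One set of identical spacers, 292 bp long, lies between his-51/his-52, his-54/his-53, his-21/his-22 and his-20/his-19. No point source from any relaxed list lay at 23 of the 26.

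Of the 9 spacers with at least 80% unique words, the H2A/H2B spacers were bound in 3 of 3 pairs, the H2A/H4 spacer in 1 of 1, and the H3/H4 spacers in 1 of 5. The unbound H3/H4 pairs were his-59/his-60, his-63/his-64, his-1/his-2 and his-38/his-40. None of the 22 spacers below 80% was bound. By gene, 4 of 17 H2A (23.5%), 3 of 17 H2B (17.6%), 1 of 15 H3 (6.67%) and 3 of 16 H4 (18.8%) replication-dependent genes were bound, on either side of the 12.7% of all protein-coding genes. The proteins of the copies are nearly invariant: all 15 H3 genes encode the same protein, as do all 16 H4 genes, the H2A genes encode 3 proteins of which 1 is shared by 15 genes, and the H2B genes encode 5.

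**Figure D5:**
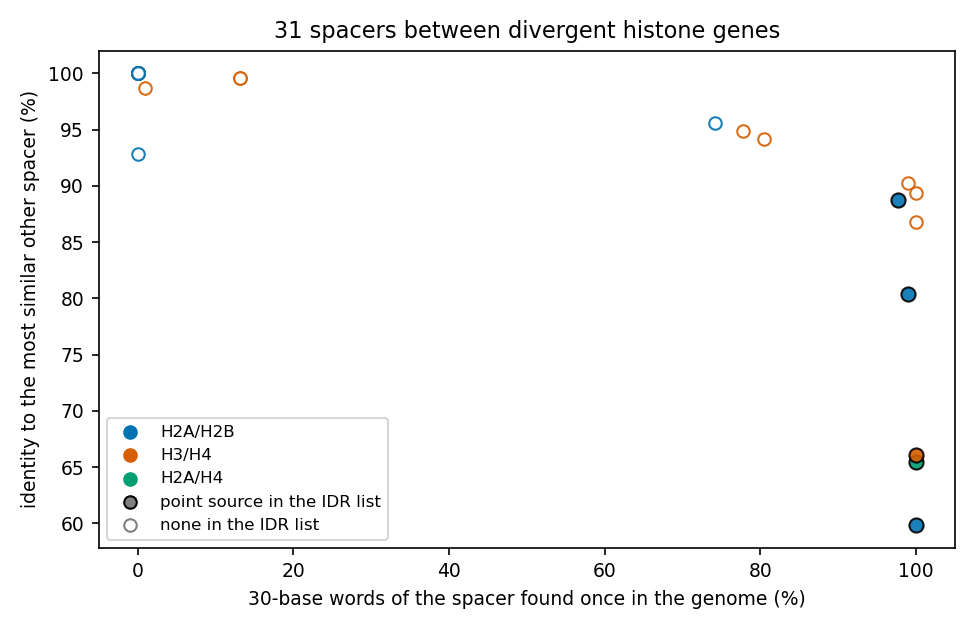
Each circle is 1 of the 31 spacers between divergent histone genes, placed by the percentage of its 30-base words found once in the genome and by its identity to the most similar other spacer, with colour for the pair of families and filled circles for spacers in the IDR list. The 5 bound spacers lie at 97.7% or more unique words and at 88.7% identity or less.

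Among the variants, the H2A.Z gene htz-1 had the highest score. H2A.Z replaces H2A in nucleosomes near promoters, and the htz-1 protein is 58.3% identical to the H2A protein of his-3. Its region (chrIV:4445750-4446055) ranked 147, 192 and 227 in replicates 1, 2 and 3, with an IDR score of 418.9. The point source lay 300 bp upstream of htz-1 and 176 bp upstream of the neighbouring gene wapl-1, so the region is nearer to that gene.

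The 6 genes his-69 to his-74 were classed by name as H3.3, the H3 form deposited outside replication, or as H3.3-like. Of these, his-72 and his-71 were bound (33.3%), where 13.3% of all protein-coding genes with at least 80% unique words were. The his-72 and his-71 proteins are 93.4% and 94.1% identical to replication-dependent H3. The values were 88.2% for his-74, 81.9% for his-69 and 77.6% for his-70. The his-73 protein has only 46 residues and is 97.8% identical over them, nearer to replication-dependent H3 than his-72 and his-71 are. The his-72 region (chrIII:12368988-12369251) ranked 1293, 934 and 1044, 87 bp upstream of the start, with a score of 190.2. The his-71 region (chrX:7982365-7982768) had a score of 71.4 and a point source 497 bp upstream, at the edge of the window. It ranked 4120 in replicate 2 and 3064 in replicate 3, and in replicate 1 the overlapping region ranked 6520 with its point source outside the window. The genes his-69, his-70 and his-73 had no point source in any list. For his-74 there was 1, at rank 26093 in replicate 1.

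Of the 7 H1 genes, 3 were bound (42.9%), where 13.3% of all protein-coding genes with at least 80% unique words were. The gene his-24 had a region (chrX:14489973-14490161) at ranks 945, 825 and 1593 with a score of 201.7, and its point source lay 30 bp upstream of the start and in the window of the noncoding gene M163.19. The region of hil-7 (chrIV:6645943-6646346) ranked 1895, 2024 and 3927 with a score of 129.3, 167 bp upstream and also in the window of the snoRNA gene C01B10.48. That of hil-3 (chrX:8158929-8159332) ranked 2965, 2615 and 3304 with a score of 110.7, 38 bp upstream. All 3 were among the top regions of every replicate, and each of the 3 had its lowest rank in replicate 3. The gene hil-2 had a point source in replicate 3 alone, at rank 3368, and hil-1, hil-4 and hil-5 had none. Likeness to the his-24 protein did not set bound and unbound H1 genes apart: hil-2, which was not bound, was 67.5% identical to it, hil-3 64.4%, hil-7 62.1% over its 66 residues, hil-4 62.0%, hil-5 56.3% and hil-1 31.7%.

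Common promoter words were also counted, on both strands of the window of the outermost start and with no test. TATAAA, the letters of a TATA box, was found in 59 of 79 histone genes (74.7%), in 15 of the 17 bound ones, and in 58.1% of all protein-coding genes. CCAAT was found in 67 (84.8%), in 12 of the 17 bound ones, and in 71.8% of all. GAGAGA was found in 37 (46.8%), in 9 of the 17, and in 33.9% of all. For 68 of the 79 histone genes, all 54 clustered ones included, an annotated start of transcription is the first coding base, so distances there are to the start codon.

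The hairpin at the end of replication-dependent histone mRNAs, which the protein CDL-1 binds in worms, was looked for in the 200 bp after each stop codon. The search was for the stem letters GGNNCT and AGNNCC around a loop NTTN, chosen after the sequences were seen, because the loop TNTN set at first matched 0 genes. It matched 61 of 19973 genes (0.305%), and all 61 were histone genes, with the match starting 34 to 60 bp after the stop codon. Matches were found in 53 of 54 clustered genes, the exception being his-47, in 8 of 11 replication-dependent genes outside the clusters and in 0 of 14 variants. The commonest letters were these, found in 52 genes, of which the first and last 6 bases form the stem.
histone mRNA hairpin: GGCCCTCTTTAGGGCC

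Of the 61 genes with the hairpin 8 were bound (13.1%), close to the 12.7% of all protein-coding genes, and of the 18 without it 9 were bound (50%). Windows under 50% unique were found in 43 of the 61 and in 1 of the 18. The 8 bound genes with the hairpin had windows 51.1% to 91.4% unique. The part of repeated sequence in the difference was not tested.

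Of 21 genes that process histone mRNA or escort and exchange histones, a list chosen with earlier results known, 7 were bound (33.3%), with 6, 8 and 8 in the top regions of replicates 1, 2 and 3, beside the 12.7% of all genes. The highest was lin-53, which encodes a histone-binding protein of several chromatin complexes, with a score of 597.9 and ranks of 59, 70 and 162. The chaperone gene nap-1 had a score of 236.7, and chaf-2, a subunit of the assembly factor CAF-1, 206.4. The H3/H4 chaperone gene unc-85 followed with 156.0, and hmg-4 and hira-1 had 87.0 and 81.1. The hairpin-binding protein gene cdl-1 had 114.4 and ranked 5429 in replicate 1, outside its top regions, and 1968 and 1904 in replicates 2 and 3. The other 14 were not bound, among them the centromeric H3 genes hcp-3 and cpar-1, and asfl-1, an ASF1 gene like the bound unc-85.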

How the data were processed

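MEP-1 ChIP-seq of 3 replicates of 1 group was used. The authors deposited, per the labels, a relaxed list of 30000 regions for each replicate and for the pooled replicates, and an IDR list of 5229 regions (5167 distinct intervals), all on ce11 and 1-based here. Each region has a score, the deposited signal value of the authors' peak caller, and regions were ranked by it. For the aligner, caller, settings, IDR threshold and treatment of multiply mapping reads, nothing was given in the sources used here. Read depth is unknown, so no counting interval could be given. The ce10 lists were not used.

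Genes came from Ensembl release 115 (WBcel235). Of the 79 members, 22 had a different name in RefSeq; the Ensembl names gave only 57 distinct ones, so RefSeq names were matched by coordinates. Families and identities came from translated coding sequences aligned with Biopython 1.88. Counts used Python 3.11.15, pandas 2.3.3, numpy 2.4.6 and scipy 1.17.1, and the counting was tested on simulated data. Every bound gene and every variant was named, with unbound members called in all 3 relaxed lists (there were none), and other genes were named after their values were seen. The members, lists and classes were chosen with earlier results of these data known. Alternatives were other windows, lists, overlaps, cluster definitions and uniqueness limits. Each replicate was also left out in turn, by keeping IDR regions that overlapped the top regions of the other replicates. The p-value covers only the spread between these samples.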

Additional observations from a re-analysis of the deposited data

How the results depend on the processing

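The clustered share minus the variant share, -31.8 percentage points in the IDR list, kept its direction under every window, list, overlap and cluster definition tried, and changed sign when genes with repeated promoters were set aside. It was 23.8 points with at least 80% unique words, where the 2 bound of 3 clustered genes share 1 point source, and 3.297 points with at least 50% (6 of 13 against 6 of 14, a sign that 1 gene turns), a limit chosen after the data were seen. It was -17.5 with a window of 200 bp upstream, -20.9 in replicate 1 alone and -21.2 where at least 50% of a region had to be covered in all 3 replicates. To leave out 1 replicate, IDR regions were kept if they overlapped the top regions of the other 2. The IDR list itself was not remade, so counts could only stay or fall. This gave -31.8 to -24.6 points, 14 to 17 bound histone genes, 6 bound clustered genes, 5 to 6 bound variants and 10 to 12 point sources. The number of bound histone genes was 11 under the coverage rule and 11 when a point source counted for the nearest start alone, which left 3 bound clustered genes since each pair then counts once. With clusters of 2 genes or more, 11 of 65 were bound. The other alternatives stayed within 1.5 times the counts reported. The 2 classes were compared within each replicate, and the sign-flip test used these paired differences. There is 1 group of samples, so no second group could be blocked by replicate number. With a window of 1000 bp, or any overlap with a region, 7 clustered genes were bound, his-42 being added. Read depth is unknown, and a list of regions cannot separate an unbound copy from one whose reads could not be placed.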
